A study of Drosophila melanogaster with 6 samples.

Results

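Mabi, grim and skl are genes of Drosophila melanogaster that induce cell death, and each was read by 1 probe set of a GeneChip Drosophila Genome 2.0 array, chosen by its single gene symbol in the array annotation. These are 3 of 18769 probe sets, or 3 of 11982 genes with a probe set of their own. RNA came from embryos of mothers with 6 copies of bicoid (6xbcd, 3 arrays) and from embryos of mothers with 2 copies (2xbcd, the control, 3 arrays). In 6xbcd, TT16 males were mated with bcd+t8 females, and in 2xbcd the same kind of males were mated with TT16 females. All embryos had TT16 fathers, and groups differed by the mother, so that stock and bcd copies of the mothers and the genotype of the embryos themselves changed together and cannot be told apart. Each array held RNA of over 100 whole dechorionated embryos of stages 12 to 13, from egg collections of 90 min aged another 8 h at 25 degrees, with unfertilised eggs removed. The design text states independent RNA samples and pairs the arrays of both groups by their replicate number, from 1 to 3.

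Programmed cell death in the fly embryo is switched on mainly by transcription of a small set of genes in one stretch of chromosome 3L: rpr, hid, grim and skl, the RHG genes. Their proteins share a short motif at the N terminus that binds inhibitor of apoptosis proteins such as Diap1, which frees caspases to dismantle the cell. Mabi (mabiki) lies on chromosome 2L, is not an RHG gene, and is known for promoting death that does not need caspases. Maternal bicoid sets the size of the head and thorax, and embryos with extra bicoid are known to lose the surplus head cells by cell death. The comparison asks which death inducers differ in RNA level in embryos of stages 12 to 13.

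Of the 3 genes, Mabi was higher and grim and skl were lower in embryos of 6xbcd mothers in every pair of arrays, and none of the 3 passed the test over all probe sets. Mabi averaged 128 ± 25.4 in 6xbcd embryos, against 34.3 ± 3.65 in the 2xbcd ones (SD, n = 3 each), a ratio of 3.73. The signal of grim averaged 175 ± 67.1 in 6xbcd embryos, against 314 ± 89.3 in the 2xbcd ones (SD, n = 3 each), a ratio of 0.556. For skl the means were 1410 ± 149 in 6xbcd embryos, against 1650 ± 285 in the 2xbcd ones (SD, n = 3 each), a ratio of 0.854. The signal is the authors' linear intensity, scaled to a common mean per array, and it does not compare the level of one gene with that of another. All 3 genes had a present call, the authors' mark of detection, on all 6 arrays. In RNA of whole embryos, more cells that express a gene and more RNA per cell cannot be told apart.

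Mabi read 99.2, 137.6 and 147.2 on the 6xbcd arrays 1 to 3, against 37.1, 30.2 and 35.7 on the 2xbcd arrays 1 to 3. The groups did not overlap, and the lowest 6xbcd array lay 62.1 above the highest 2xbcd array. Of 10137 tested probe sets, 7.38% had all 6xbcd arrays above all 2xbcd arrays, so the separation alone is common. The size of the change is not: 0.464% of tested probe sets (47) had a log2 change as large as that of Mabi or larger. The 2xbcd arrays lay close together, with a coefficient of variation of 10.6%, against 19.8% among the 6xbcd arrays. The lowest of the 6xbcd arrays was replicate 1, and the ratio to its paired control was 2.67 there, 4.56 in pair 2 and 4.12 in pair 3.

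With log2(signal + 16) values and the replicate number as a block, Mabi had a log2 change of 1.5 with a standard error of 0.226 (95% interval 0.94 to 2.07, limma adjusted p = 0.0532). It was higher in 3 of 3 pairs, as were 19.7% of tested probe sets. Adjusted p values are over all 10137 tested probe sets, of which 1.32% passed 0.05, and Mabi ranked 146 by p. The same log2 change passed without the block (limma adjusted p = 0.0262), where 0.957% of probe sets passed. It also passed in the paired fit without replicate 3 (limma adjusted p = 0.0361), but not without replicate 1 (0.146) or replicate 2 (0.32). Without the block, leaving out 2xbcd replicate 1 kept the call (limma adjusted p = 0.0486), while leaving out any other single array gave adjusted p values from 0.0534 to 0.138. An exact two-sided permutation test over the 6 arrays gave p = 0.1, the smallest value that 3 arrays against 3 allow. Since its 2xbcd signal is near the offset of 16, the fitted change depends on that offset: it was 1.85 with an offset of 1 and 0.96 with an offset of 64 (limma adjusted p = 0.0623 and 0.0479).

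**Figure D1:**
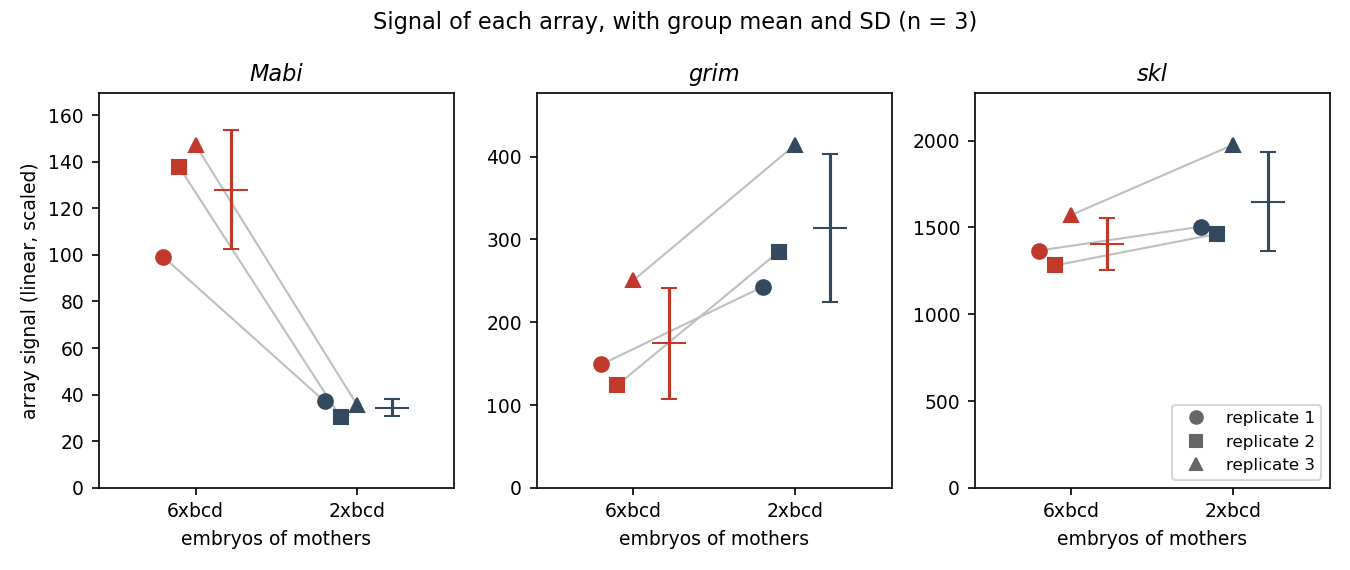
Signal of Mabi, grim and skl on each array (linear scale, axes from 0), with 6xbcd embryos left and 2xbcd embryos right in each panel; grey lines join arrays of the same replicate number, and bars give the group mean and SD (n = 3). Mabi lies at 99.2 to 147.2 in 6xbcd and 30.2 to 37.1 in 2xbcd embryos with no overlap, while for grim and skl each line runs upward to 2xbcd but the groups overlap.

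The RHG gene grim read 149, 124.1 and 250.8 on the 6xbcd arrays 1 to 3, against 242.8, 285.3 and 414.2 on the 2xbcd arrays 1 to 3. The groups overlapped, because 6xbcd replicate 3 lay above 2xbcd replicate 1, and replicate 3 was the highest array of both groups. Within pairs grim was lower in 6xbcd in 3 of 3 pairs, as were 19.3% of tested probe sets. In the paired fit grim had a log2 change of -0.81 (SE 0.159, 95% interval -1.21 to -0.42, limma adjusted p = 0.106), and 0.404% of tested probe sets (41) had a change as low or lower. Without the block the limma adjusted p was 0.411, and the exact two-sided permutation p was 0.2. With each array scaled to its median, grim passed (log2 change -0.92, limma adjusted p = 0.0318), under a scaling that lowered the median change of all tested probe sets by 0.11.

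The RHG gene skl (sickle) read 1366.5, 1281 and 1571.7 on the 6xbcd arrays 1 to 3, against 1503.8, 1461.9 and 1974.5 on the 2xbcd arrays 1 to 3. As for grim, replicate 3 was the highest array of each group, and 6xbcd replicate 3 lay above 2xbcd replicates 1 and 2. The ratio of 6xbcd to 2xbcd was 0.909, 0.876 and 0.796 in pairs 1, 2 and 3. In the paired fit skl had a log2 change of -0.22 (SE 0.0634, 95% interval -0.38 to -0.06, limma adjusted p = 0.223), and 11.5% of tested probe sets had a change as low or lower. Without the block the 95% interval of skl was -0.532 to 0.097 (limma adjusted p = 0.681). Its exact two-sided permutation p was 0.3.

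The size of the changes of grim and skl depended on single arrays of both groups. On the first principal component of the 6 arrays, which held 53.5% of the variance, 2xbcd replicates 2 and 3 lay at 19.07 and 39.37, 6xbcd replicate 2 at 6.87, and the others between -22.3 and -21.45. Without 2xbcd replicate 3, and with no block, the log2 change of grim was -0.61 and that of skl -0.08 (limma adjusted p = 0.748 and 0.964). With all 6 arrays and no block the limma adjusted p values were already 0.411 for grim and 0.681 for skl. Without 2xbcd replicate 2, and with no block, the log2 changes were -0.86 for grim and -0.3 for skl. Without 6xbcd replicate 2 the log2 changes were -0.62 and -0.15, in that order. When 2xbcd replicates 2 and 3 were both left out, grim had a log2 change of -0.5 and skl of -0.1, against 1.42 for Mabi, with limma adjusted p values of 0.816, 0.907 and 0.312. With the component as a covariate and no block, Mabi had 1.51 (limma adjusted p = 0.0398), grim -0.71 (0.51) and skl -0.15 (0.799). With no block, leaving out 6xbcd replicate 3 gave -1.08 for grim and -0.3 for skl. Leaving out 2xbcd replicate 1 gave -0.97 and -0.28, and leaving out 6xbcd replicate 1 gave -0.74 and -0.2. In these fits Mabi kept a log2 change of 1.4 or more. The changes of grim and skl were smaller without 2xbcd replicate 3 or 6xbcd replicates 1 or 2. They were larger without 2xbcd replicates 1 or 2 or 6xbcd replicate 3. Among the 6xbcd arrays the order on the component was not that of grim or skl: both were highest in replicate 3, at -21.57 on it, and lowest in replicate 2, at 6.87. Among the 2xbcd arrays both were highest in replicate 3, at 39.37 on the component. There grim rose in the order of the component, while skl was lowest in replicate 2, at 19.07. The part of the component in the changes of grim and skl was not tested.

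The 3 genes were also set against each other, as differences of their log2 changes within each array. The change of Mabi exceeded that of grim by 2.32, with an SD of 0.54 over the 3 pairs and a range from 1.77 to 2.84. It exceeded that of skl by 1.72 ± 0.4 (SD, n = 3 pairs). The change of grim lay below that of skl by 0.6 on the log2 scale, a difference of -0.6 ± 0.29 (SD, n = 3 pairs). In all 3 comparisons the 6xbcd arrays and the 2xbcd arrays did not overlap. The exact two-sided permutation p was 0.1 for each, before and after Benjamini-Hochberg adjustment over the 3, the smallest value the design allows. The difference of grim and skl follows from the other 2. How often other pairs of genes separate in this way was not computed. Of single tested probe sets, 7.38% had all 6xbcd arrays above and 8.68% had all of them below.

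The authors' deposited table, which calls each pair of arrays by itself, set Mabi apart from the RHG genes. There Mabi was called increased in each of the 3 pairs, as were 1.39% of tested probe sets, and the change p values of the authors' deposited table were 7e-06, 0.00016 and 1.7e-05. Each of these p values sets 1 array against 1 array, so it does not measure the spread between replicates. In the authors' deposited table, both grim and skl had no change in pairs 1 and 2 and a decrease call in pair 3, a combination of 5.17% of tested probe sets. For skl the log2 ratios of the authors' deposited table were -0.2, -0.2 and -0.4 in pairs 1 to 3, close to the log2 ratios of the signals at -0.14, -0.19 and -0.33. For Mabi the authors' deposited table gave 1.2, 2 and 2.1, and the signals 1.42, 2.19 and 2.04.

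For grim the 2 measures went apart. The log2 ratios of its signals were -0.7, -1.2 and -0.72 in pairs 1, 2 and 3, while the authors' deposited table gave -0.3, -0.1 and -0.5. In pair 2 the gap was 1.1, which 0.168% of tested probe sets reached, where the median gap was 0.09. In pair 1 the gap of 0.4 was reached by 5.61% and in pair 3 the gap of 0.22 by 17.7%. The loss of grim was thus largest in pair 2 by the signals and smallest there by the authors' ratio. No source used here gives how the deposited ratio was computed, and the cause of the gap was not tested.

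**Figure D2:**
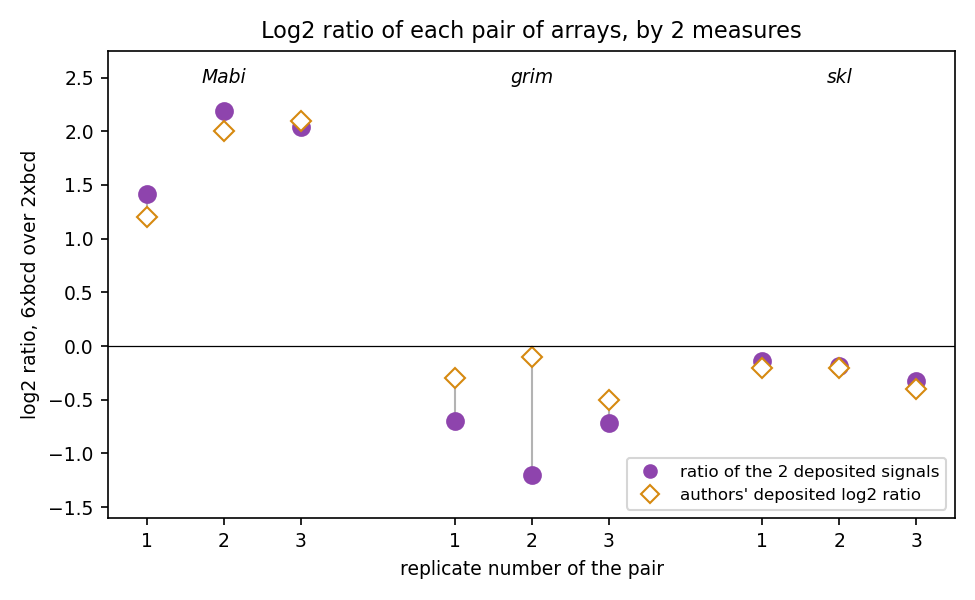
Log2 ratio of 6xbcd over 2xbcd for each pair of arrays (x axis: replicate number), as the ratio of the 2 deposited signals (filled circles) and as the authors' deposited log2 ratio (open diamonds), joined by a line. Both measures lie between 1.2 and 2.19 for Mabi and between -0.4 and -0.14 for skl, while for grim in pair 2 they lie at -1.2 and -0.1.

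Around these genes, the other measured parts of the death pathway differed little between the groups. Of the 36 genes of the cell death list, which includes Mabi, grim and skl, 29 had a tested probe set. In limma, 0 of the 29 passed an adjusted p of 0.05, against 1.32% of all tested probe sets. With a share that low, 0 calls among 29 genes says little. Their median log2 change was -0.08, with 12 positive and 17 negative, against a median of 0.01 over all tested probe sets. At an unadjusted p under 0.05 there were 5 of the list's 35 probe sets (14.3%), against 14.9% of all tested ones (7.59% higher and 7.32% lower). With Mabi, grim and skl included, the share is thus near the background. These were Mabi, higher, and grim, skl, Det and egr, lower. Without Mabi, grim and skl, the log2 changes of the other 26 genes lay between -0.26 and 0.1. Of these 26, 2 were lower and 0 higher at an unadjusted p under 0.05, a smaller share than that of all tested probe sets.

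Among the RHG genes only grim and skl had a tested probe set of their own, and rpr and hid were not analysed here. Caspases and the apoptosome, the proteases of apoptosis and the platform that activates them, had 6 of 8 genes tested. The caspases Drice and Decay had no probe set of their own and were not analysed here. None of the 6 passed in limma (lowest adjusted p = 0.461), against 1.32% of all tested probe sets, and 1 change was positive and 5 negative. The initiator caspase Dronc had a log2 change of -0.12, its activating adaptor Dark -0.12, and the effector caspase Dcp-1 0.07. Dredd, a caspase better known for immune signalling, read 426.1, 481.9 and 468.1 in 6xbcd, against 499.7, 493.2 and 562.7 in 2xbcd embryos, without overlap and with a log2 change of -0.17; 8.68% of tested probe sets had all 6xbcd arrays below all 2xbcd arrays. Damm was dim, with a present call on 1 of 3 6xbcd and 2 of 3 2xbcd arrays.

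Of the 6 caspase inhibitors and their regulators, 5 were tested and none passed, against 1.32% of all tested probe sets. Diap1, the inhibitor that RHG proteins bind, had no probe set of its own and was not analysed here. Det (Deterin), the fly relative of survivin, read 1361.9, 1715.3 and 1649.2 in 6xbcd, against 1559.8, 1987.2 and 1921.3 in 2xbcd embryos. Det had a log2 change of -0.21 (SE 0.053, limma adjusted p = 0.177), close to that of skl, and the groups overlapped. Diap2, an inhibitor of caspases, had -0.11, Bruce, a large ubiquitin-conjugating inhibitor, 0.02, HtrA2, a mitochondrial protease, 0.1 and morgue, a ubiquitin pathway gene that lowers Diap1, 0.08. The Bcl-2 relatives Debcl and Buffy had log2 changes of 0.05 and -0.06 (limma adjusted p = 0.913 and 0.929). Of 5 genes for death nucleases and AIF, the mitochondrial flavoprotein linked to death without caspases, 4 were tested, with AIF at 0.07, EndoG, a mitochondrial nuclease, at 0.01, Drep2 at -0.01 and Drep4, the caspase-activated DNase, at -0.16.

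Signals that act upstream of the death inducers gave no call either. Only 1.32% of all tested probe sets passed, so 0 calls in groups this small says little. In the JNK and TNF group 9 of 10 genes were tested and 0 passed in limma, with a median log2 change of -0.08. Its ligand gene egr read 786.6, 736.8 and 889.5 in 6xbcd, against 932.9, 934.3 and 925.3 in 2xbcd embryos, without overlap, with a log2 change of -0.21 (SE 0.0805, limma unadjusted p = 0.0423, adjusted p = 0.316). Of all tested probe sets, 8.68% had each 6xbcd array below each 2xbcd array. A second egr probe set had -0.12. The JNK kinase gene bsk had -0.08 and the JNK target puc 0. Among 12 known regulators of RHG genes 8 were tested, with log2 changes from -0.18 for grh to 0.01 for p53. Of these 0 passed in limma and 1 had an unadjusted p under 0.05, against 14.9% of all tested probe sets for the latter. Dfd, the head Hox gene known to activate rpr, had -0.03.

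Genes for the removal of dying cells had 6 of 7 members tested, 3 positive and 3 negative. Of the 6, 0 passed in limma and 1 had an unadjusted p under 0.05 (higher), against 1.32% and 14.9% of all tested probe sets. The engulfment receptor drpr had a log2 change of 0.02, the receptor NimC4 (simu) 0.09, and the macrophage receptor crq 0.23 (SE 0.0853, limma adjusted p = 0.31). Their summed signal lay between 12717 and 13772 in 6xbcd and between 12416 and 14079 in 2xbcd embryos.

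**Figure D3:**
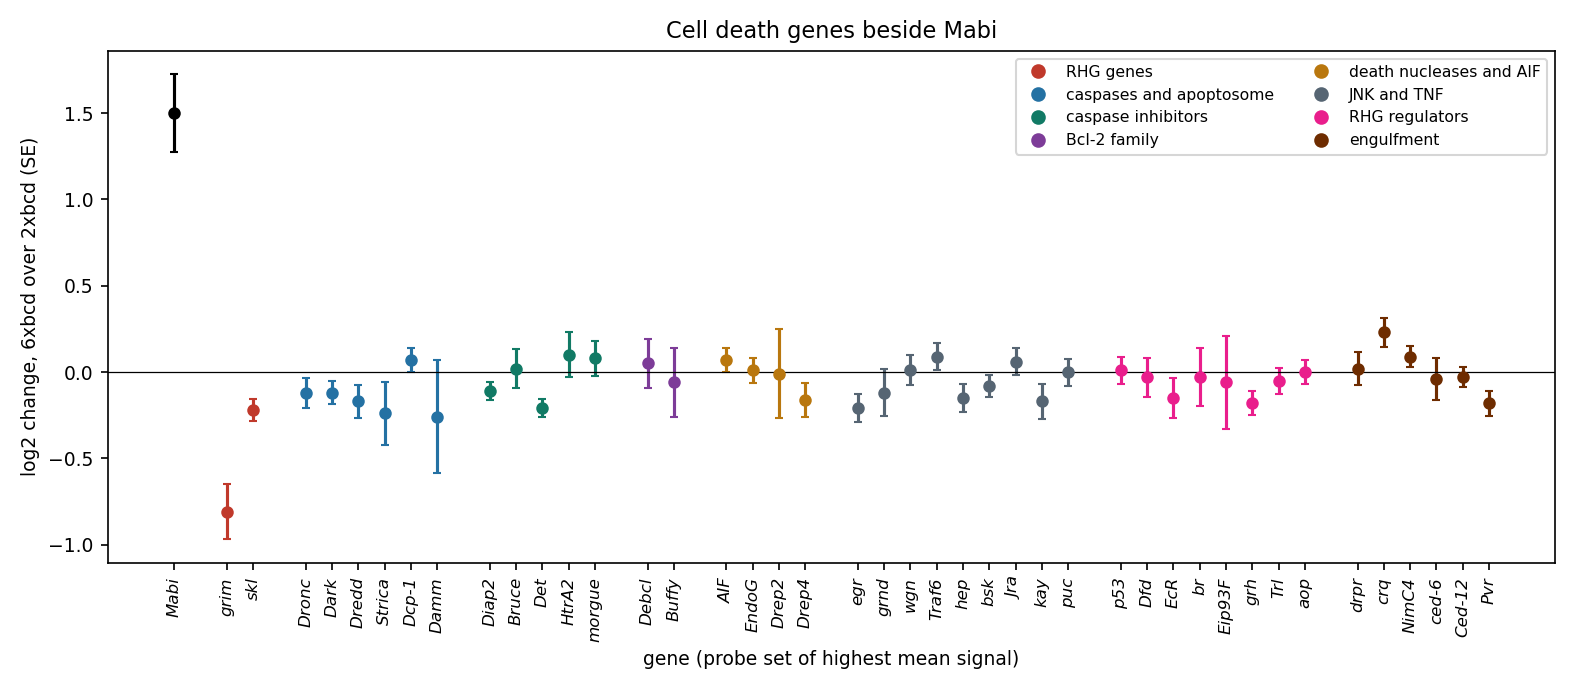
Log2 change (y axis, 6xbcd over 2xbcd, with its standard error) of Mabi and of each tested gene of the death, upstream and engulfment groups (x axis, 1 probe set per gene). Mabi stands at 1.5 and grim at -0.81, while the other genes lie between -0.26 and 0.23.

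Neighbours on the chromosome were taken as the 5 protein-coding genes on each side in the RefSeq gene order of assembly Release 6. Around Mabi all 10 neighbours had a probe set, 3 were tested, and their log2 changes lay between -0.03 and 0.22 (lowest limma adjusted p = 0.572). Its direct neighbours Prosalpha6T and Jhbp14 had no present call on any array. Around grim and skl, which share most neighbours, CG32196 had a log2 change of 0.07. CG4306, the second gene beyond skl, read 977, 1282.7 and 829.6 in 6xbcd, against 2670.9, 1976.7 and 2453.6 in 2xbcd embryos. The groups did not overlap, and CG4306 had a log2 change of -1.2 (SE 0.184, limma adjusted p = 0.0561, and 0.0283 without the block). The change next to the RHG genes was thus larger for CG4306 than for grim or skl, and that difference was not tested.

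The genes whose log2 values ran most like those of each death inducer over the 6 arrays are a description only. With 6 arrays in 2 groups, a gene that separates the groups as Mabi did scores high with Mabi. For Mabi these were shi, the dynamin gene (Pearson r = 0.996), CG11825 (0.994), Rbm13 (0.994), TM4SF, a tetraspanin (0.993), and osk, the germ plasm organiser (0.99). All 5 had each 6xbcd array above each 2xbcd array, with log2 changes from 0.57 to 1.03. For grim they were Meltrin, a metalloprotease gene (0.991), Cbp20, a subunit of the RNA cap-binding complex (0.985), nonA, an RNA-binding protein gene (0.981), mam, the Notch coactivator (0.981), and Corp, a p53 regulator (0.979). Of the genes like grim, nonA and Corp had each 6xbcd array below each 2xbcd array. For Meltrin, Cbp20 and mam the groups overlapped. The log2 changes of the genes like grim lay between -0.9 and -0.11. The genes most like skl were SKIP (0.993), CG12054 (0.991), lost (0.99), ctrip (0.988) and zetaCOP, a coatomer subunit (0.987), with log2 changes from -0.28 to -0.12. For each gene like skl the groups overlapped.

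The labels were checked against marker genes. The bcd transcript itself read 2335.1, 1497.4 and 1375.1 in 6xbcd, against 860.6, 546.4 and 301 in 2xbcd embryos (log2 change 1.66, limma adjusted p = 0.0189, and 0.118 without the block). Of 20 markers of embryonic tissues 16 had a probe set and 14 a present call on all 6 arrays, while nSyb and Hml had none. Of 6 larval, adult and eggshell genes 5 had a probe set, and none of these was tested for want of present calls. The summed signal of the tissue markers lay between 26452 and 28091 in 6xbcd and between 26866 and 32847 in 2xbcd embryos. Of the 14 tested tissue markers 0 passed in limma (lowest adjusted p = 0.203), against 1.32% of all tested probe sets. At an unadjusted p under 0.05 there were 3 higher and 4 lower, a larger share than the 14.9% of all tested probe sets. The groups did not overlap for 3 of them: the midgut gene GATAe had a log2 change of 0.33, the neuronal gene fne -0.37 and the glial gene repo -0.21. Of all tested probe sets, 7.38% had each 6xbcd array above and 8.68% each below the 2xbcd arrays, so 3 of 14 says little. The part of these marker differences in the values of Mabi, grim and skl was not tested. Each array had 9697 to 10474 present calls.

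**Figure D4:**
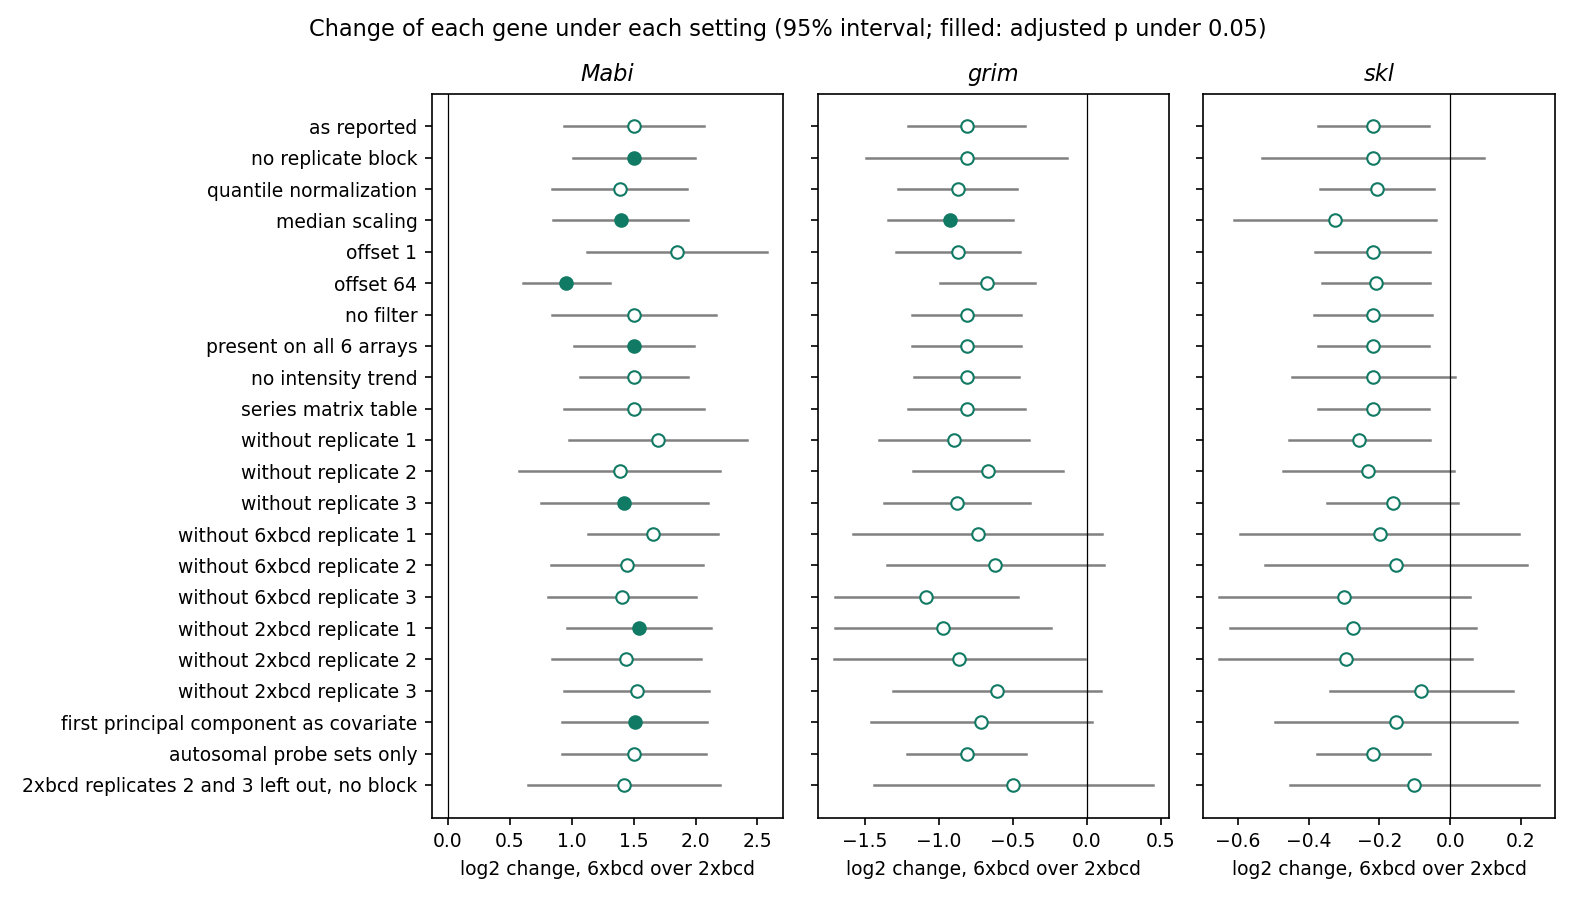
Log2 change of Mabi, grim and skl (x axes, 6xbcd over 2xbcd, scales differ between panels) with its 95% interval, as reported and under each other setting (y axis); filled points have a limma adjusted p under 0.05. Mabi stays between 0.96 and 1.85 and is filled under 7 other settings, grim between -1.08 and -0.5 and filled under 1, and skl between -0.33 and -0.08 and never filled.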

How the data were processed

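GCOS is the tool named, with no version, per the submitters' processing notes. The signal the authors deposited is a linear intensity, with a 2% trimmed mean of 500 on every array, and both deposited tables held identical signals. Per the file headers, 1 table also holds detection calls and, for each pair, the authors' log2 ratio, change call and change p-value (small for an increase, near 1 for a decrease).

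Of 18952 probe sets 183 controls were left out, and the 10137 called present on 3 or more of the 6 arrays were tested on log2(signal + 16) with limma 3.58.1 in R 4.3.3 (lmFit, eBayes with intensity trend, two-sided, Benjamini-Hochberg over all of them), with the replicate number as a block. Folds of dim genes are understated on this scale. A list gene was read by its probe set with the highest mean signal. Symbols were updated through Entrez numbers (13544 matched) to RefSeq Release 6. Exact permutation tests used scipy 1.17.1 in Python 3.11.15. The number of arrays limits the precision.

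The pairing comes from the design text: the correlation between arrays of 1 number, after removal of group means, was 0.437 in pair 1, 0.385 in pair 2 and -0.19 in pair 3, so the values alone do not single out the pairs. On simulated data of this comparison (10137 probe sets, 5 runs) 79.4% of log2 changes of 1 were called, 99.4% of those of 2, and 9.52% of calls were false. The simulated noise was independent between probe sets, with an exact replicate block. Its variances were the moderated ones of limma, drawn toward the intensity trend. The noise held no shared component like that of the real arrays, so these shares may overstate recovery here. Members, gene lists, neighbour rule (5 per side) and likeness rule (5 highest correlations per gene) were chosen with earlier results of these data known. CG4306 and the other genes named fall under these rules. Alternatives were no block, other scalings, offsets and filters, no intensity trend, the other table and left-out arrays. A principal component as covariate, autosomal probe sets alone, and leaving out 2xbcd replicates 2 and 3 together were chosen after seeing the data.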

Additional observations from a re-analysis of the deposited data

How the results depend on the processing

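The direction of all 3 genes was the same under every alternative run. The log2 change of Mabi passed the limma threshold without the replicate block (1.5), with median scaling (1.39), with an offset of 64 (0.96), with probe sets present on all 6 arrays (1.5) and with the principal component as covariate (1.51), and lay between 1.39 and 1.7 with replicates or arrays left out. Its limma adjusted p ranged from 0.0121 to 0.32. Of the 22 alternatives, Mabi passed under 7 and did not pass under 15. Among these 15 were quantile normalization (limma adjusted p = 0.0548), no filter (0.119) and no intensity trend (0.14). The 15 include the exact permutation test, which cannot reach 0.05 with 3 arrays against 3. The log2 change of grim passed with median scaling alone (-0.92) and lay between -1.08 and -0.61 with replicates or arrays left out. For skl, which passed under none of the 22 alternatives, the values with replicates or arrays left out ran from -0.3 to -0.08, the smallest being that without 2xbcd replicate 3. The count of called probe sets was 134. It was 5 without the intensity trend, 15 without 2xbcd replicates 2 and 3, and between 10 and 270 with a replicate or array left out. Among autosomal probe sets alone limma called 0 of 7370 (969 at an unadjusted p under 0.05), where Mabi had an adjusted p of 0.113. Called probe sets of the cell death list numbered 0 as reported, 1 without the block, with an offset of 64, with presence on all 6 arrays and with the principal component, 2 with median scaling (Mabi and grim), and 0 to 1 with replicates or arrays left out. The single call was Mabi each time. With a lone 2xbcd array, that array is assumed to vary like the 6xbcd arrays. The causes of these differences were not tested. Signals near the offset of 16 limit what can be said of the size of the change of Mabi.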
